A study of Rattus norvegicus with 12 samples.

Results

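The genes described here are 10 that slow or halt the cell cycle or report cellular stress: Gadd45a, Gadd45b, Gadd45g, Cdkn1a, Cdkn1b, Btg1, Btg2, Btg3, Mdm2 and Ccng1. They were found as the probe sets whose platform annotation gives exactly 1 symbol, equal to one of these names. That gave 13 of 31099 probe sets on the array, for 9 of the 10 genes. No probe set carries the name Btg2, and that gene has no value here. Cdkn1a and Cdkn1b had more than 1 probe set, as did Mdm2.

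RNA of the forebrain was measured in 12 male Long Evans rats, each 6 weeks old, kept alone in its cage beforehand, with 1 array per animal. The control group was 6 animals in a standard laboratory cage, and the exposed group was 6 animals moved for 3 hours into an unfamiliar space with objects of varied shape and colour. No allele, drug or transgene is named for either group. Per the labels, the series was made to identify genes upregulated by such an exposure. Values are deposited intensities in arbitrary linear units, and a difference is exposed minus control on the log2 scale, given ± its standard error in limma. A probe set passed when its Benjamini-Hochberg adjusted p over all 31042 probe sets tested was under 0.05.

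The array medians lay between 235 and 245. Neuronal markers were bright, with a mean over 9 genes between 12.5 and 12.6 on the log2 scale in every animal, and 0 of 9 passed. The liver genes Apoa1 and Serpina1 had mean intensities under the floor of 53.9 in both groups, while Alb was at 383 and 401 and Ttr, which the choroid plexus also makes, was bright. Of 10 endothelial and mural markers 1 was lower in exposed animals and 10 of 10 differences were below 0. Their mean level ran from 9.08 to 9.20 on the log2 scale in control and from 9.002 to 9.12 in exposed animals, and their part in the results below was not tested. Since the forebrain holds many cell types, fewer cells of a type and less RNA per cell cannot be told apart. The 3 arrays that stood apart in an earlier analysis of these data are control 4 and exposed animals 3 and 5. The median correlation with the other animals of the group was 0.995 for both of the latter and from 0.997 to 0.998 for the other 10 animals. Values without all 3 are given where they bear on a result. RNA quality was read from the 3 prime minus 5 prime log2 difference of array controls, which averaged 0.39 ± 0.05 (SD, n = 6) for control and 0.45 ± 0.07 (SD, n = 6) in exposed animals.

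Gadd45 proteins are small acidic stress sensors without enzyme activity of their own. They bind the kinase MEKK4 upstream of p38 and JNK, interact with p21 and PCNA, and take part in DNA repair and active DNA demethylation. Neurons no longer divide, and in them Gadd45b is known as an activity-induced gene. Cdkn1a codes for p21 and Cdkn1b for p27, inhibitors of cyclin-dependent kinases. Btg proteins are antiproliferative adaptors that recruit the CCR4-NOT deadenylase to messenger RNA. Mdm2 is the ubiquitin ligase that limits p53, and Ccng1 codes for cyclin G1, another p53 target that acts on that loop.

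After the exposure Gadd45b, Gadd45g and Cdkn1a were higher in the forebrain, by 2.26-fold, 1.41-fold and 1.42-fold. Gadd45a, Cdkn1b, Btg1, Btg3, Mdm2 and Ccng1 did not pass the test. By probe set, 3 of 13 (23.1%) were higher and 0 were lower in limma, where 1.97% of all probe sets on the array were higher and 0.599% lower. With the brightest probe set of each gene, 3 of 9 genes were higher, against 2.62% of 14217 genes higher and 0.844% lower. The groups did not overlap for the same 3 probe sets, against 2.71% of all probe sets. The median difference of the 9 genes was 0.12, beside 0.00 over all genes. Of all 14217 genes 1544 were at the floor on all arrays, where the difference is 0, and of the 9 genes 0 were. In the plot of intensities by gene, the exposed animals stand clear of the control animals in 3 of the 9 panels. With RNA quality as a covariate all 3 genes kept their calls in limma, at adjusted p = 0.000197 for Gadd45b, 0.0224 for Gadd45g and 0.0130 for Cdkn1a.

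**Figure D1:**
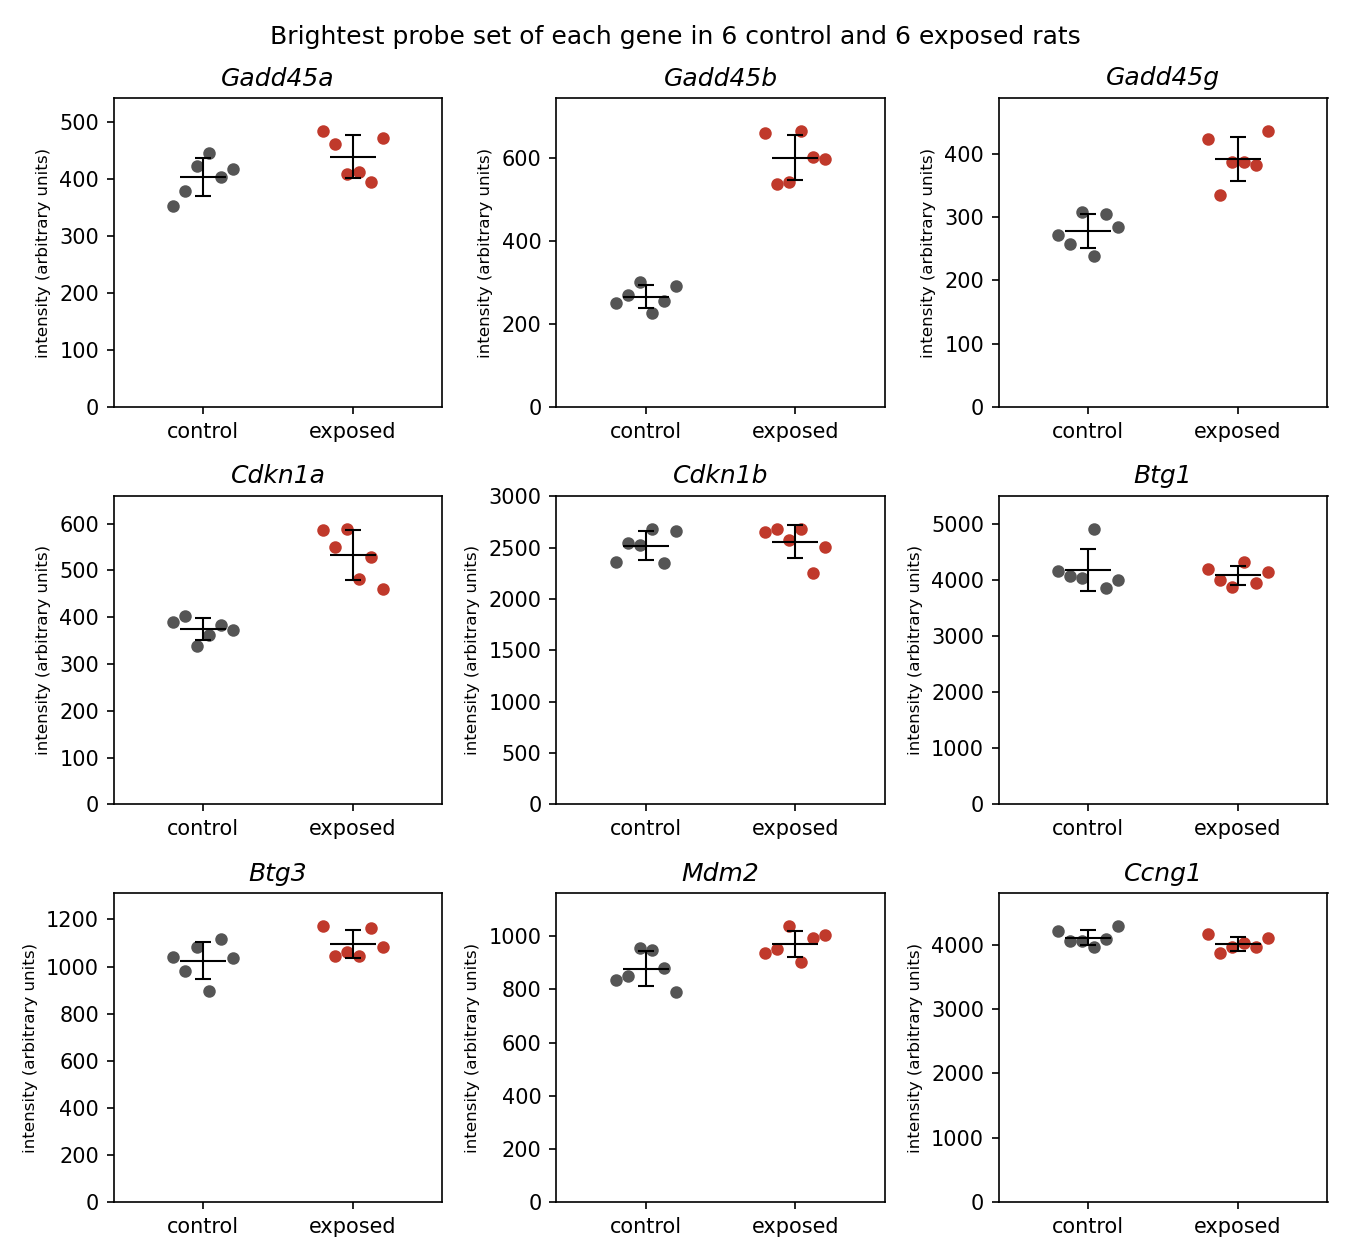
Deposited intensity (arbitrary linear units, axis from 0) of the brightest probe set of 9 genes, 1 point per animal, with 6 control (grey) and 6 exposed (red) rats and bars for the mean ± SD. For Gadd45b, Gadd45g and Cdkn1a all 6 exposed animals lie above every control animal, and in the other 6 panels the groups overlap.

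Gadd45b had the largest difference of the 9 genes. Its intensity ran from 226 to 301 in control animals (median 262) and from 537 to 664 in exposed animals (median 600.1). The lowest exposed animal was thus far above the highest control. The mean was 266 ± 27.7 (SD, n = 6) in control and 601 ± 54.6 (SD, n = 6) in exposed animals. The log2 difference was 1.18 ± 0.08 (95% interval 1.00 to 1.35, limma adjusted p = 2.72e-05), which ranked the probe set 19 by p on the array. An exact two-sided permutation test over 924 assignments gave an unadjusted p = 0.00216, the lowest value possible with 6 animals per group. The difference was 1.08 in the animals numbered 1 to 3 in the labels and 1.28 in those numbered 4 to 6. Without control 4 and exposed animals 3 and 5 it was 1.17 (limma adjusted p = 0.000795).

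Gadd45g rose by less than Gadd45b. Control animals ran from 239 to 308 (median 277) and exposed animals from 335 to 435 (median 386). All exposed animals were above every control, with exposed animal 2 nearest to them. The mean went from 277 ± 26.8 (SD, n = 6) to 391 ± 35.3 (SD, n = 6), a log2 difference of 0.50 ± 0.08 (95% interval 0.33 to 0.67, limma adjusted p = 0.00592, exact permutation p = 0.00216). It was 0.45 in animals numbered 1 to 3 and 0.55 in those numbered 4 to 6. Without control 4 and exposed animals 3 and 5 the log2 difference was 0.47 and its call was lost (limma adjusted p = 0.0515).

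Gadd45a, the member of the family best known as a p53 target after DNA damage, did not pass. Its intensity ran from 353 to 445 in control and from 395 to 484 in exposed animals, and 3 of 6 exposed animals lay above every control. The log2 difference was 0.12 ± 0.07, with a 95% interval from -0.03 to 0.27 (limma adjusted p = 0.532). It was 0.23 in animals numbered 1 to 3 and 0.01 in those numbered 4 to 6. Without control 4 and exposed animals 3 and 5 it was 0.21 ± 0.07 (limma adjusted p = 0.225), while adjusting for RNA quality gave 0.18 (limma adjusted p = 0.340).

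The difference of response between family members was tested per animal, as the log2 difference between their brightest probe sets, in 5 comparisons chosen after seeing the data. Gadd45b responded more than Gadd45a by 1.06 in an exact two-sided test (permutation p = 0.00216, adjusted p = 0.00361 over the 5 comparisons), with no overlap of the groups. It responded more than Gadd45g by 0.68, again with no overlap (exact permutation p = 0.00216, adjusted p = 0.00361). Gadd45g responded more than Gadd45a by 0.38, with 5 of 6 exposed animals above all controls (exact permutation p = 0.00866, adjusted p = 0.0108). These gaps were 0.95, 0.70 and 0.25 without control 4 and exposed animals 3 and 5. Probe sets can compress a fold change to different degrees, which these comparisons do not account for.

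**Figure D2:**
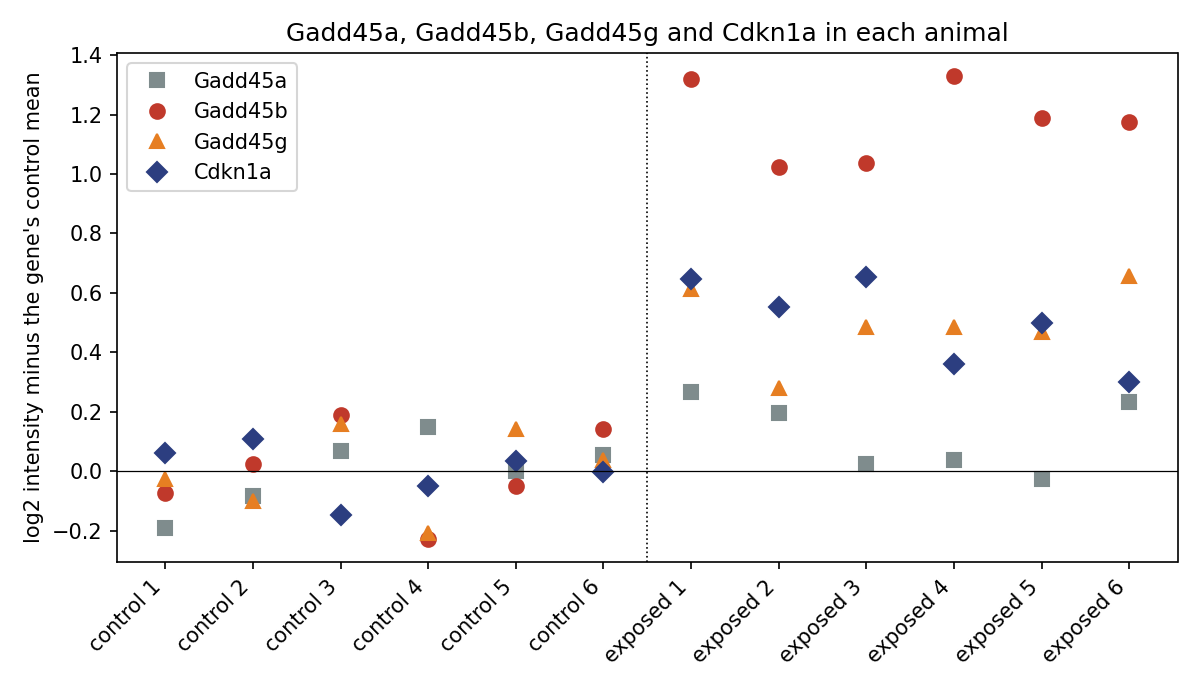
Log2 intensity of Gadd45a (grey squares), Gadd45b (red circles), Gadd45g (orange triangles) and Cdkn1a (blue diamonds) in each of the 12 animals, relative to that gene's mean over the 6 control animals. Among exposed animals Gadd45b is the highest of the 4 genes in every animal, and Gadd45a is the lowest in every animal.

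The stretches before the starts of Gadd45b and Gadd45g both hold the palindromic E-box CACGTG, and that of Gadd45a does not. All 3 are shown as members of one family, and whether the E-box bears on their responses was not tested. Cdkn1a, which also rose, has no match to it. Sequences are from RefSeq on the GRCr8 build, read 5′ to 3′ on the gene's strand, all minus here, and capitals mark matches to the motifs searched. For Gadd45b (chr7:9430879-9430908, minus strand) only the surroundings of the E-box are printed, because a longer transcript model covers that window. Gadd45b also has the cAMP response core TGACG, read on the other strand, beginning 3 bases before its start and outside the stretch printed. Gadd45a has that core as well, and Gadd45g does not. Gadd45g (chr17:13530352-13530601, minus strand) and Gadd45a (chr4:97486800-97487049, minus strand) are given as the 250 bases before the start.
Gadd45b: agccctgaccccCACGTGgggccgccggag
Gadd45g: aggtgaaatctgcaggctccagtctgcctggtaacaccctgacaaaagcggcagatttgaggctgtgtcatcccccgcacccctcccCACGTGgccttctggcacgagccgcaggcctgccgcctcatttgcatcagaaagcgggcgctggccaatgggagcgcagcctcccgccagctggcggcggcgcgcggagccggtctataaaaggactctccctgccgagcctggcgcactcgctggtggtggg
Gadd45a: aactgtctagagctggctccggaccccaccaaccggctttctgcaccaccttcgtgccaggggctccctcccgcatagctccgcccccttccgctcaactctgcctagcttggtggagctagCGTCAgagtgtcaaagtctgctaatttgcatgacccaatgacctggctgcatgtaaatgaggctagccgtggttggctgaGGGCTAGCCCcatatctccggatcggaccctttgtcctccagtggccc

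The E-box starts 178 bases before the start of Gadd45b and 163 bases before that of Gadd45g. Both strands of 300 bases (250 before to 50 after the start) were searched in all 10 genes and in 33469 promoters. CACGTG was in 2 of the 10 and in 6.42% of all promoters. The core TGACG of the cAMP response element was in 6 of the 10 (21.2% of all). These were Gadd45a, Gadd45b, Cdkn1a, Cdkn1b, Btg2 and Mdm2. The full element TGACGTCA, which contains that core on both strands, was in Btg2 alone (1.83% of all). The 10-letter unit of the p53 response element was in Gadd45a, Cdkn1a and Ccng1 (7.98% of all). The AP-1 site (TGAGTCA or TGACTCA, 4.63%), the Egr site GCGGGGGCG (2.73%), the glucocorticoid receptor core AGAACA (20.7%), the consensus NF-kB site (0.111%) and the CArG box (1.64%) matched in 0 of the 10. A match is a description of letters, and binding was not measured.

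Cdkn1a, the p21 inhibitor gene, rose at its brightest probe set. Its intensity ran from 338 to 403 in control animals (median 378) and from 461 to 589 in exposed animals (median 540). The groups were separate, and exposed animals 4 and 6 were the nearest to the controls. The mean went from 375 ± 23.0 (SD, n = 6) to 533 ± 53.1 (SD, n = 6), a log2 difference of 0.50 ± 0.07 (95% interval 0.35 to 0.65, limma adjusted p = 0.00251, exact permutation p = 0.00216). It was 0.61 in animals numbered 1 to 3 and 0.39 in those numbered 4 to 6. The gap of -0.22 between these sets did not pass (limma interaction, adjusted p = 1). Over the whole array 0 probe sets (0%) passed that interaction in limma, and 1140 of 31042 had an unadjusted p under 0.05. Without control 4 and exposed animals 3 and 5 the difference was 0.45 (limma adjusted p = 0.0414).

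The second Cdkn1a probe set was at the floor on 11 of 12 arrays, with intensities from 27.6 to 58.0. The gap between its response and that of the brightest one is therefore not interpreted. With the floor at the 10th percentile its log2 difference was 0.30 (limma adjusted p = 0.286).

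The bases before the Cdkn1a start are shown because they hold a match to the p53 unit, from 201 to 192 bases before it. The stretch printed ends where the longest gene model begins (chr20:7150682-7150819, plus strand, GRCr8, RefSeq), and capitals mark TGACG, read on the other strand, and the p53 unit.
Cdkn1a: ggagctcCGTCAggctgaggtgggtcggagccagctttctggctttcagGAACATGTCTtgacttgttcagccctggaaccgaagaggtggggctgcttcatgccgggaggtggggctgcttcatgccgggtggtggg

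Cdkn1a is also known as a target of glucocorticoid hormones. Of 9 such reference genes measured 2 passed as higher and 9 of 9 differences were above 0, while 7 did not pass. An unadjusted limma p under 0.05 was reached by 8 of the 9 (15.9% of all genes), and the median difference of the 9 was 0.41. Their mean level ran from 9.93 to 10.3 on the log2 scale in control and from 10.1 to 10.8 in exposed animals, so the groups overlapped. Of 9 activity-regulated reference genes 9 rose, against 2.62% of all genes. That list was chosen with earlier results of these data known, so its count is a description and not a test. What either group of genes has to do with Cdkn1a was not tested.

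Cdkn1b, the p27 gene, showed no difference that passed at either probe set. The brightest ran from 2348 to 2684 in control and from 2255 to 2683 in exposed animals, so the ranges nearly coincided. The fit gave a log2 difference of 0.02 ± 0.05 with a 95% interval from -0.09 to 0.13 (limma adjusted p = 1). The dimmer one ran from 113 to 136 in control and from 76.1 to 132 in exposed animals, where exposed animal 5 was the lowest. Its log2 difference was -0.20 ± 0.12 (95% interval -0.46 to 0.05, limma adjusted p = 0.531). Without exposed animal 5 it was -0.11, and without control 4 and exposed animals 3 and 5 it was -0.08 (limma adjusted p = 0.660 and 0.872). The dimmer minus the brightest response was -0.23 (95% interval -0.41 to -0.04), a gap that did not pass in limma (adjusted p = 0.395 over 6609 pairs). At the brightest probe sets Cdkn1a responded more than Cdkn1b by 0.48, with no overlap of the groups (exact permutation p = 0.00216, adjusted p = 0.00361 over the 5 comparisons). Without control 4 and exposed animals 3 and 5 that gap between Cdkn1a and Cdkn1b was 0.37.

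Of the BTG family, Btg1 and Btg3 were measured, and neither passed. Btg1 ran from 3860 to 4920 in control and from 3884 to 4322 in exposed animals. Control 4 alone was above 4322. This gave a log2 difference of -0.03 ± 0.05 (95% interval -0.15 to 0.09, limma adjusted p = 1), and without control 4 and exposed animals 3 and 5 it was 0.05 (limma adjusted p = 0.549).

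Btg3 ran from 895 to 1116 in control and from 1043 to 1172 in exposed animals, with 2 of 6 exposed animals above every control. The log2 difference of Btg3 was 0.10 ± 0.05 (95% interval -0.02 to 0.21, limma adjusted p = 0.523). Without control 4, the lowest animal, it was 0.06, and without exposed animals 3 and 5 as well it was 0.05 (limma adjusted p = 0.741 and 0.870). Btg3 and Btg1 differed in response by 0.12, a gap that did not pass (exact two-sided permutation p = 0.271, adjusted p = 0.271 over the 5 comparisons; SD between animals 0.23 in control and 0.10 in exposed). Without control 4 that gap was 0.04, and without control 4 and exposed animals 3 and 5 it was -0.0045.

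Of the p53 loop, Mdm2 had a positive difference at each of its 3 probe sets, and none passed. The brightest ran from 790 to 958 in control and from 902 to 1038 in exposed animals, and 3 of 6 exposed animals lay above every control. Its log2 difference was 0.15 ± 0.05 (95% interval 0.03 to 0.26). The unadjusted p was 0.0154 and the limma adjusted p was 0.206, and the exact two-sided permutation test gave an unadjusted p = 0.0238. The second Mdm2 probe set had a log2 difference of 0.02 ± 0.04 and the third of 0.05 ± 0.04 (limma adjusted p = 1 and 0.775). Their responses minus that of the brightest were -0.12 (95% interval -0.25 to 0.004) and -0.10 (95% interval -0.25 to 0.05). Neither gap passed in limma (adjusted p = 0.535 and 0.688, where 0.908% of 6609 such pairs on the array passed). This does not show that the 3 probe sets responded alike. The third had a difference of 0.10 without control 4 and exposed animals 3 and 5 (limma adjusted p = 0.370), and it was 0.03 without control 2 and also without exposed animal 1.

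Ccng1, the cyclin G1 gene, had the narrowest spread between animals at the brightest probe set of the 9 genes, with a log2 SD of 0.04 in both groups. It ran from 3955 to 4286 in control and from 3862 to 4157 in exposed animals. Its log2 difference was -0.03 ± 0.02, with a 95% interval from -0.08 to 0.02 (limma adjusted p = 0.645).

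**Figure D3:**
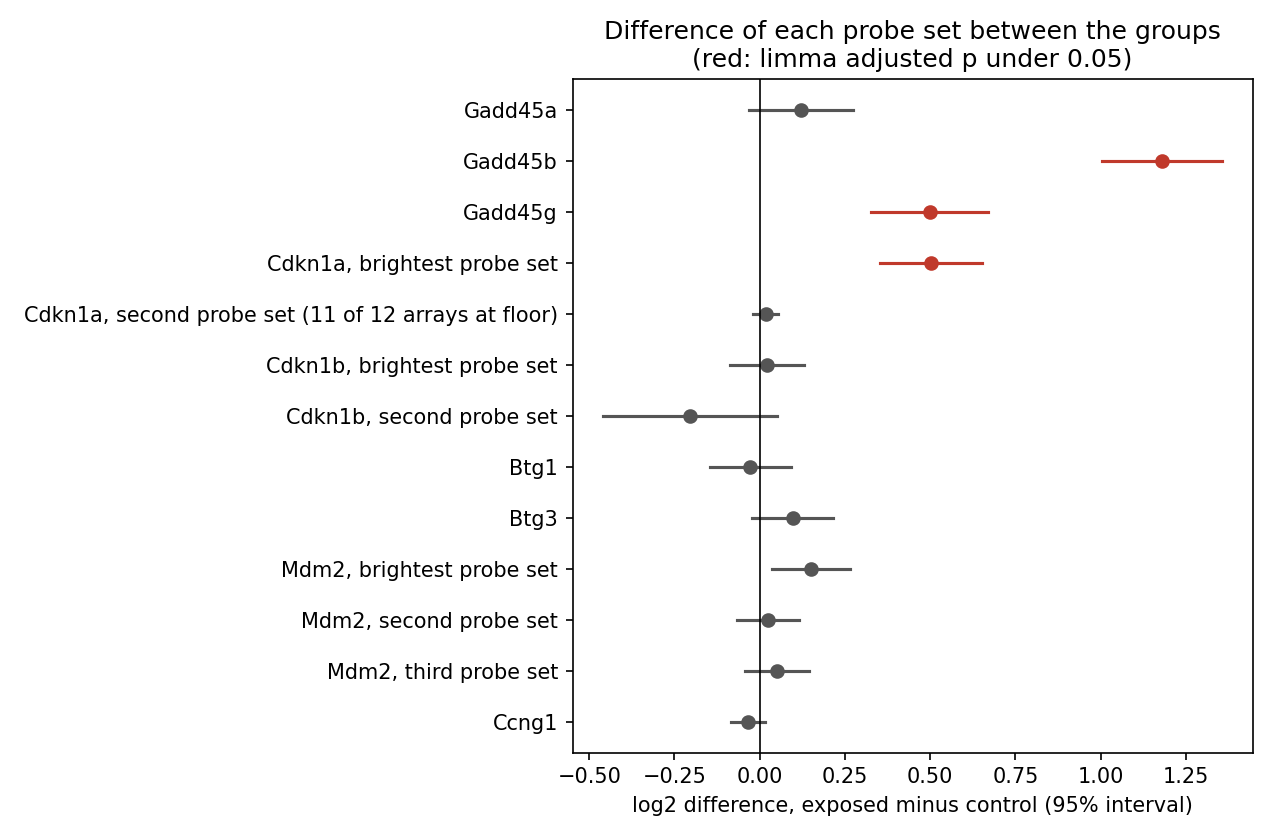
Log2 difference, exposed minus control (6 animals per group), of each of the 13 probe sets, with its 95% interval as a line, red where the limma adjusted p was under 0.05. Gadd45b lies at 1.18, Gadd45g and Cdkn1a near 0.50, and of the others only the interval of the brightest Mdm2 probe set (0.03 to 0.26) leaves out 0, while the second Cdkn1a probe set is at the floor on 11 of 12 arrays.

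Within a group the 9 genes did not all move together from animal to animal. Over the 36 pairs of genes, Pearson's r was taken of the animals' deviations from their group mean. It ran from -0.68 (Btg1 and Btg3) to 0.75 (Gadd45g and Btg3), given as a description over 12 animals that share their arrays. Every pair among Gadd45b, Gadd45g, Btg3 and Ccng1, picked after seeing the values, had r from 0.48 to 0.75. Control 4 was the lowest control animal for each of these genes and the highest for Btg1. What r would be without that animal was not tested. The genes most like each riser were taken as those with the highest Pearson's r over the 12 animals, a measure dominated by the gap between the groups. For Gadd45b they were Sertad1, a regulator that binds the kinase CDK4 (r = 0.99, and 0.81 within control and 0.74 within exposed animals), the nuclear receptor gene Nr4a3 (r = 0.99, and 0.41 and 0.86) and the cyclooxygenase gene Ptgs2 (r = 0.98, and 0.69 and 0.60). For Gadd45g they were the heparan sulfate sulfotransferase gene Hs3st2, the stress-response transcription factor gene Atf4 and Btbd8 (r = 0.95 for each). Within control and within exposed animals r was 0.92 and 0.53 for Hs3st2, 0.86 and 0.88 for Atf4, and 0.89 and 0.47 for Btbd8. For Cdkn1a they were the oxysterol-binding protein gene Osbpl3 (r = 0.96), the ERK pathway inhibitor gene Spry4 (r = 0.96) and Arid3b, which codes for a DNA-binding protein (r = 0.95). Within control and within exposed animals r was 0.56 and 0.89 for Osbpl3, 0.21 and 0.92 for Spry4, and 0.75 and 0.80 for Arid3b.

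Around these genes, 8 lists of partners held 130 measured genes, of which 4 (3.08%) were higher and 2 (1.54%) lower in limma. Over all genes the shares were 2.62% and 0.844%, so that of the higher ones was near the background. Their median difference was 0.00, as it was over all genes, and both sets hold genes at the floor on all arrays, whose difference is 0. The plot of gene lists shows most of their genes close to 0. The BTG and p53 target lists share Btg4, and Ddit4 is both in the p53 target list and among the glucocorticoid-induced genes.

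Of 11 measured kinases of the p38 and JNK pathway that Gadd45 proteins feed, 1 was higher and 0 lower. That was Map2k3, a kinase that activates p38, which went from 325 ± 10.2 (SD, n = 6) to 469 ± 30.7 (SD, n = 6). Its log2 difference was 0.52 ± 0.04 (limma adjusted p = 0.000104), with 6 of 6 exposed animals above every control. Mapk14, p38 alpha itself, had a log2 difference of 0.09 and Map2k6 of -0.19 (limma adjusted p = 0.169 and 0.370). Map3k7, a kinase kinase of the pathway, had -0.05 (limma adjusted p = 0.398).

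Of 21 genes of DNA demethylation and base excision repair, 2 were higher and 1 lower. Tet3 and Tet2 code for enzymes that oxidise methylcytosine. Tet3 went from 426 ± 29.1 (SD, n = 6) to 575 ± 42.9 (SD, n = 6), a log2 difference of 0.43 ± 0.06 (limma adjusted p = 0.00292, 6 of 6 exposed animals above every control). Tet2 had a log2 difference of 0.15 ± 0.03 (limma adjusted p = 0.0178, 6 of 6). Without control 4 and exposed animals 3 and 5 both of these calls were lost (limma adjusted p = 0.0516 for Tet3 and 0.0615 for Tet2). Both were also lost with the animal number as a block (limma adjusted p = 0.0673 for Tet3 and 0.0608 for Tet2). Dnmt3b, a DNA methyltransferase gene, was lower by little at a dim probe set, from 67.0 ± 3.18 (SD, n = 6) to 59.8 ± 2.55 (SD, n = 6; limma adjusted p = 0.0422), close to the floor of 53.9. Its call held in 7 of 24 alternatives, and the adjusted p without the 3 arrays was 0.114. Apex1, a repair endonuclease gene, had a log2 difference of -0.11 (limma adjusted p = 0.0996). The median of the list was -0.03. Of the 21 differences 4 were above 0, and 3 genes were at the floor on all arrays. An unadjusted limma p under 0.05 was reached by 7 of the 21 genes (15.9% of all genes). Besides the genes just named, these were Ercc5 (-0.20, 6 of 6 exposed animals below every control), Xpa (-0.17) and Ung (-0.15). These did not pass (limma adjusted p = 0.219, 0.226 and 0.327).

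Of 27 other p53 targets, 0 were higher and 1 was lower. Bbc3, which codes for the cell death protein PUMA, went from 319 ± 15.0 (SD, n = 6) to 288 ± 5.92 (SD, n = 6), with 6 of 6 exposed animals below every control (log2 difference -0.15 ± 0.03, limma adjusted p = 0.0377). Its call held in 7 of 25 alternatives, and the adjusted p without the 3 arrays was 0.186. The kinase gene Plk2 had a log2 difference of 0.16 (limma adjusted p = 0.0788), the cyclin G2 gene Ccng2 -0.10 (0.0892) and the arrest gene Rprm -0.23 (0.152). An unadjusted p under 0.05 was reached by 8 of the 27 genes, where 15.9% of all 14217 genes reached it, and the list's median difference was 0.00. Besides the genes just named, these were Sesn2 (0.13), Aen (0.13), Plk3 (0.16) and Ddit4 (0.41), which did not pass. Of 10 genes for p53 relatives and regulators 0 passed in limma and 1 had an unadjusted p under 0.05. That was Hipk2, a kinase that acts on p53, at 0.18 (limma adjusted p = 0.330), and the others with the smallest p were Chek1 (0.14), Ppm1d (0.08) and Crebbp (0.07).

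Of 20 genes of the G1 and S phases of the cell cycle, 1 was higher and 0 lower. Ccnd3, a D-type cyclin that p21 and p27 act on, went from 925 ± 38.9 (SD, n = 6) to 1045 ± 42.2 (SD, n = 6). Its log2 difference was 0.18 ± 0.03 (limma adjusted p = 0.0199), with 5 of 6 exposed animals above every control. The call was lost without exposed animal 1 (limma adjusted p = 0.0506) and without control 4 and exposed animals 3 and 5 together (0.0913). It was also lost with the animal number as a block (limma adjusted p = 0.131). E2f5 (0.14), Ccnd2 (0.24) and Ccnh (0.09) did not pass in limma (adjusted p = 0.223, 0.267 and 0.349).

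Of 6 other CDK inhibitor genes 0 passed in limma, with 0 at an unadjusted p under 0.05. Their differences ran from -0.10 for Cdkn2d to 0.06 for Cdkn1c, with Cdkn2c at -0.06 and Cdkn2b at 0.01. Of 21 proliferation markers 0 passed, also with 0 at an unadjusted p under 0.05, and their differences ran from -0.11 for Birc5 to 0.10. Mcm7 had -0.08, Plk1 -0.08 and Mcm2 0.09, and 9 of the 21 had a mean intensity under 100, a dim level at which small changes would be hard to see.

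Of 15 genes of the BTG and TOB family and the CCR4-NOT deadenylase, 0 passed in limma and 2 had an unadjusted p under 0.05. Cnot9, a subunit of that complex, had a log2 difference of 0.14 ± 0.04 (limma adjusted p = 0.0665, 5 of 6 exposed animals above every control). Tob2, an antiproliferative relative of the Btg genes, had 0.14 ± 0.06 (limma adjusted p = 0.313). Cnot6l (0.15) and Pan3 (0.06) were the others with the smallest p.

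**Figure D4:**
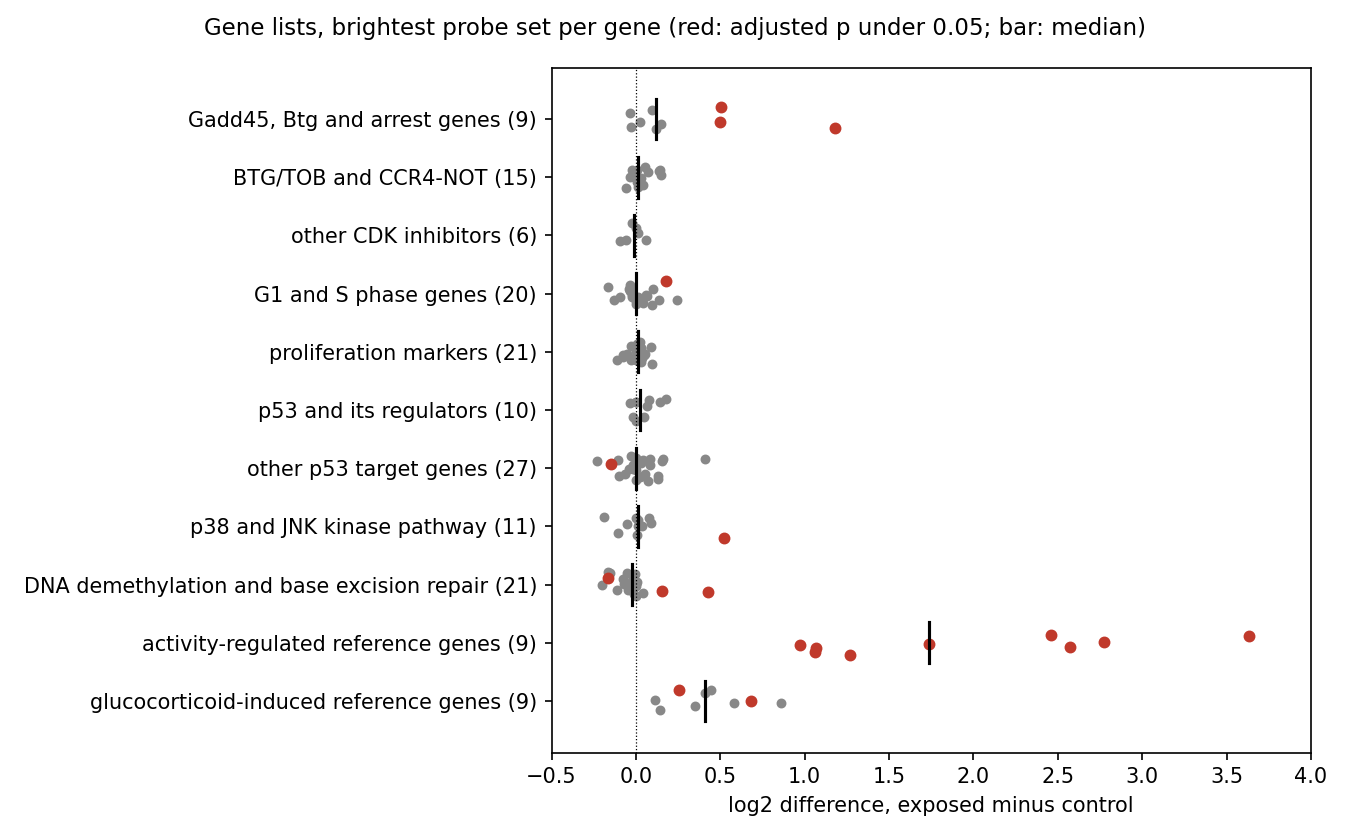
Log2 difference, exposed minus control, at the brightest probe set of each gene in 11 lists (number of genes measured in parentheses), with the median as a bar and red points for a limma adjusted p under 0.05. The 9 Gadd45, Btg and arrest genes have a median of 0.12, the 8 partner lists have medians from -0.03 to 0.02, and the 9 activity-regulated reference genes, all red, have a median of 1.74.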

How the data were processed

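The deposited table holds 1 linear intensity per probe set and animal, and the authors' background correction, summary and normalization are not given in the sources used here. Per the labels' protocols, RNA was Trizol extracted, cleaned on RNeasy columns and labelled by the Affymetrix procedure. Array medians of log2 intensity lay within 0.06 of each other, so no normalization was added. Intensities were raised to the 20th percentile of all values (53.9) and put on the log2 scale. The 2 groups were compared with limma 3.58.1 in R 4.3.3 (lmFit, eBayes with trend, no covariate) over 31042 probe sets, without the 57 array controls, with Benjamini-Hochberg adjustment. The procedure was tested on simulated data. Precision is limited by the number of arrays.

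Symbols came from the platform annotation (20832 probe sets with 1 symbol, 436 with several, 9831 with none). Lookup by Entrez ID changed 0 symbols and left 68 IDs unmatched. A gene with several probe sets is represented by its brightest. Single genes were also compared by exact permutation. Alternatives were quantile or median scaling, other floors, filters on dim probe sets, other eBayes settings, array weights, the animal number as a block or in sets 1 to 3 and 4 to 6, RNA quality as a covariate, and leaving out animals. All probe sets of the genes described are named, with up to 4 genes of smallest p per partner list and the 3 genes most like each riser. The other p53 targets and the genes of DNA demethylation and base excision repair with an unadjusted p under 0.05 are named as well. The genes, lists and tests were chosen with earlier results of these data known. The labels do not say what the animal numbers stand for.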

Additional observations from a re-analysis of the deposited data

Results flagged for a closer look

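In control animals Btg1 had 1 animal far from the others. Control 4 was at an intensity of 4920 and the nearest control at 4156, and on the log2 scale the gap was 0.696 of the whole range of the group, above Dixon's 95% critical value for 6 samples. Chance flags about 1 in 20 such groups, and 26 groups (13 probe sets, both conditions) were checked.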

How the results depend on the processing

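Gadd45b and Cdkn1a kept their direction and call in all 25 alternatives run, and Gadd45g in 24. The number of the 13 probe sets that were higher was 2 or 3 and the number lower was 0. No other of the 13 passed in any alternative. Over all probe sets the number lower was 313 with array weights, 76 with the replicate block, 72 with the RNA quality covariate and 82 without control 4 and exposed animals 3 and 5, against 186. It ran from 103 to 182 with 1 animal left out, and leaving out control 3 gave 103, control 5 gave 112, control 6 gave 117 and exposed animal 1 gave 106. The number higher was 359 with the replicate block, against 610. Partner genes higher numbered 7 with array weights, 2 with the replicate block and 2 without the 3 arrays, against 4. Partner genes lower (2) numbered 1 without the dimmest 40%, without probe sets at the floor, with robust eBayes or with array weights, and 0 with median centring, the floor at the 40th percentile, the block, the RNA quality covariate or without the 3 arrays, and from 0 to 2 with 1 animal left out. The gap between the Cdkn1a probe sets, -0.48 and -0.20 with the floor at the 10th percentile, says nothing, since the dimmer one lies at the floor. The cause of the other changes was not tested. The correlation of same-numbered animals ran from -0.08 to 0.16 and was over 0.1 in 2 of 6 pairs. This does not settle whether the numbers pair the samples. With the animal number as a block the standard error fell for some of the 13, such as Btg3 (0.054 to 0.034). It rose for others, such as Gadd45b (0.080 to 0.102). With that block Gadd45b, Gadd45g and Cdkn1a kept their calls, while those of Ccnd3, Tet2, Tet3, Bbc3 and Dnmt3b were lost (adjusted p = 0.131, 0.0608, 0.0673, 0.137 and 0.0975).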
